A study of Mus musculus with 8 samples.

Results

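The cadherin superfamily was examined in the cortex of newborn mice that lack the BAF complex in their principal neurons. The group comprised every protein-coding gene whose symbol is *Cdh* or *Pcdh* followed only by digits, together with *Pcdh11x*. It held 35 of the 48709 genes counted, with 23 cadherin and 12 protocadherin symbols, and the clustered protocadherins were outside it. Of these, 30 passed the filter on low counts and were tested among 16287 genes, whereas *Cdh1*, *Cdh3*, *Cdh16*, *Cdh17* and *Cdh19* did not pass. The members fell into 5 type I classical cadherins, 13 type II classical cadherins, 5 other cadherins, 4 delta-1 protocadherins, 5 delta-2 protocadherins and 3 other nonclustered protocadherins.

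Cadherins are calcium-dependent adhesion molecules that bind mostly to their own kind on neighbouring cells. Classical cadherins reach the actin cytoskeleton through catenins bound to their cytoplasmic tails. Delta-protocadherins adhere more weakly, lack the catenin-binding site and can recruit the WAVE complex, a regulator of actin branching. In the developing cortex, these proteins hold the ventricular surface together, guide the migration of neurons along radial glia and take part in the sorting of axons and synapses, and many of them mark particular layers or areas.

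RNA was measured by sequencing in whole cortical tissue at postnatal day 1 (P1), in 4 control and 4 dcKO_Nex-Cre libraries. The dcKO_Nex-Cre mice carried floxed alleles of *Smarcc1* and *Smarcc2*, which encode the BAF scaffold subunits BAF155 and BAF170, together with Nex-Cre. The controls were Cre-negative and carried 1 floxed and 1 wild-type allele of each gene (BAF155fl/+, BAF170fl/+), and both groups were kept on the C57BL6/J background. Nex-Cre, driven from the *Neurod6* locus, recombines in the principal neurons of the cortex from embryonic stages on, so that interneurons, glia and vessels are left unrecombined. Loss of the BAF subunits and presence of the Cre allele cannot be told apart in these groups. The sources used here do not say whether the libraries came from separate litters or animals, so that p values measure the spread between these samples.

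Total counts per library ranged from 17958641 to 35191912. *Smarcc2* was at 462 ± 25.8 CPM (counts scaled to the size of the library; mean ± SD, n = 4) in control and 263 ± 26.03 in dcKO_Nex-Cre libraries, and *Smarcc1* was at 148 ± 11.6 and 102 ± 13.7, with no overlap between the groups for either gene. Their log2 fold changes were -0.81 and -0.53 (edgeR, Benjamini-Hochberg adjusted p = 0.00267 and 0.0348). The call of *Smarcc1* was lost within lane tag 2 (adjusted p = 0.0752), with the lane tag as a term (0.128), with the replicate number as a block (0.0578) and in 6 of 8 omissions of a library. Control replicate 2 and dcKO_Nex-Cre replicate 4 stood apart, with mitochondrial shares of 6.87% and 6.15% of the counts against 2.33% to 4.24% in the other libraries, and across genes their deviations from their group means correlated at 0.371. The labels do not give sex. Read from *Xist* and Y-linked genes, each group held 1 female library, control replicate 2 and dcKO_Nex-Cre replicate 2. In CPM of the unadjusted library size, Y-linked genes summed to 17.4 and 0.749 in these libraries, against 170 to 269 in the others. The file names gave lane tag 8 to dcKO_Nex-Cre replicates 3 and 4 and lane tag 2 to the other 6 libraries. The markers of principal neurons *Slc17a7*, *Slc17a6*, *Neurod2*, *Neurod6* and *Tbr1* were present in every library, and their sums in each group are given below.

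No cadherin gene passed an adjusted p of 0.05 in edgeR's quasi-likelihood test, in which 0.884% of all genes tested passed. At an unadjusted p below 0.05 there were 9 of the 30 members tested (30%), against 13.6% of all genes. Of these 9 genes, the 5 genes *Cdh8*, *Cdh20*, *Pcdh17*, *Pcdh18* and *Pcdh20* were at higher levels in the dcKO_Nex-Cre cortex, against 6.59% of all genes in that direction, and the 4 genes *Cdh4*, *Cdh12*, *Cdh22* and *Pcdh11x* were at lower levels, against 7.05%. DESeq2's Wald test on the same counts gave an adjusted p below 0.05 for 6 members (20%), against 3.02% of all genes. In that test *Cdh8* and *Pcdh20* were upregulated, against 1.31% of all genes, and *Cdh4*, *Cdh12*, *Cdh22* and *Pcdh11x* were downregulated, against 1.7%. Limma-voom gave none, against 0.792% of all genes, with its unadjusted p below 0.05 for 9 of 30 members and 14.3% of all genes. In 6 members (20%) the groups did not overlap in CPM, against 8% of all genes, with 3 members higher (3.99% of all genes) and 3 lower (4.01%). The family had no common direction, with 17 members above and 13 below 0 and a median log2 fold change of 0.02, near the 0.00 of all genes. In whole tissue, fewer cells of a type and less RNA per cell cannot be told apart in any of these values.

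**Figure D1:**
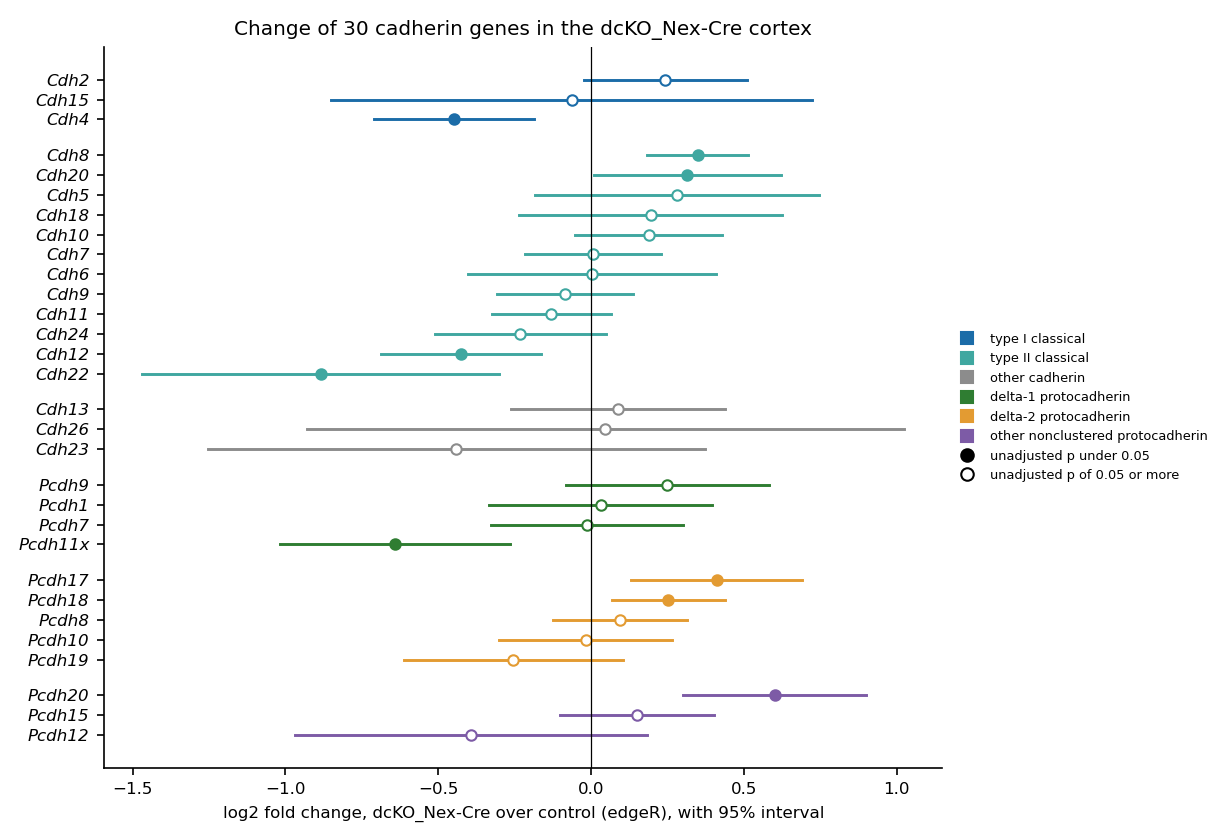
Log2 fold change (dcKO_Nex-Cre over control, edgeR) of the 30 cadherin genes tested, grouped by class and ordered within it, with bars for the 95% interval and filled points for an unadjusted p below 0.05. The 9 filled points lie on both sides of 0, from *Cdh22* at -0.88 to *Pcdh20* at 0.60.

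Expression per kb of exon length showed which members dominate the P1 cortex. In the control, *Cdh2*, encoding N-cadherin, was highest at 30.6 CPM per kb, followed by *Cdh4* at 18.2, *Pcdh8* at 16.4, *Cdh8* and *Cdh11* at 13.1 each, *Pcdh9* at 11.3, *Cdh13* at 10.7 and *Pcdh19* at 10.1. At the other end were *Pcdh12* at 0.94, *Pcdh15* at 0.71, *Cdh15* at 0.67, *Cdh26* at 0.15 and *Cdh23* at 0.091 CPM per kb. These low genes are best known from vessels, the inner ear, muscle and epithelia. Type I, type II and delta-protocadherins were all found among the highest, but class did not set the level. *Cdh15* is itself type I, and the next lowest were the type II members *Cdh6*, *Cdh18* and *Cdh7*, at 1.17, 1.71 and 1.79 CPM per kb.

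**Figure D2:**
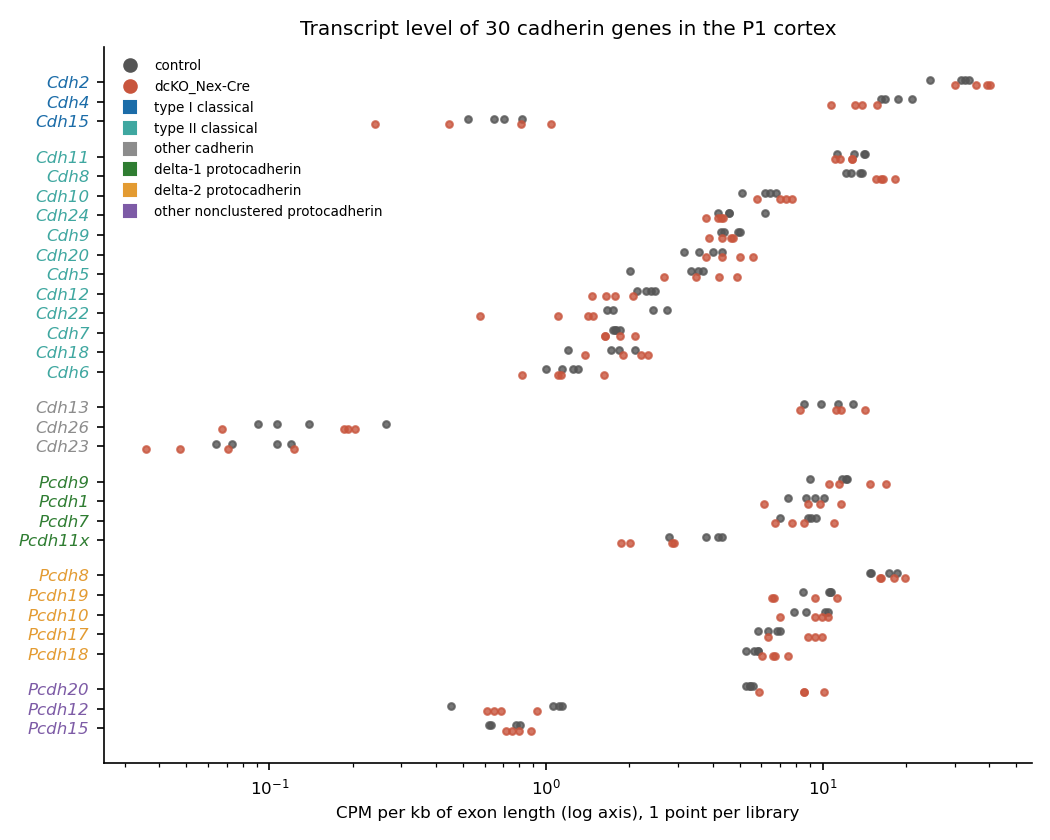
Expression of the tested cadherin genes in CPM per kb of exon length on a log axis, with 1 point per library and both groups shown, grouped by class. *Cdh2* is highest at 30.6 CPM per kb in the control and *Cdh23* lowest at 0.091, and most genes span similar ranges in control and dcKO_Nex-Cre libraries.

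Among the 3 type I classical cadherins tested, *Cdh4* alone had an unadjusted p below 0.05, at a lower level in the mutant. *Cdh4* encodes R-cadherin (retinal cadherin), which can also bind N-cadherin, and lies on chromosome 2 (179442431 to 179899373, plus strand; GRCm38). Control replicates 1 to 4 had 136, 121, 118 and 153 CPM, and dcKO_Nex-Cre replicates 1 to 4 had 114, 94.9, 100.5 and 77.5 CPM. All mutant libraries lay below all controls, with replicate 4 the lowest. The mean was 73.2% of the control and the log2 fold change -0.45 ± 0.12 (SE; edgeR, adjusted p = 0.130; DESeq2, adjusted p = 0.0283). The exact permutation test gave p = 0.0286, the smallest that 70 regroupings allow. Without dcKO_Nex-Cre replicate 4 the log2 fold change was -0.35 and edgeR's adjusted p 0.0450. Without both libraries that stood apart, an omission chosen after seeing the data, it was -0.39 with an adjusted p of 0.0252.

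*Cdh2*, which holds neural progenitors together at the ventricular surface and is used again at synapses, had 264, 197, 272 and 255 CPM in the control libraries and 324, 288, 316 and 242 CPM in the dcKO_Nex-Cre libraries. Mutant replicates 1 to 3 lay above all controls, while replicate 4 lay among them. The log2 fold change was 0.24 with a 95% interval from -0.02 to 0.51 (edgeR, adjusted p = 0.399). Without control replicate 2 and dcKO_Nex-Cre replicate 4, the libraries that stood apart, it was 0.23 with an adjusted p of 0.0453, so that *Cdh2* and *Cdh4* then passed in opposite directions. This omission was chosen after seeing the data, and 11% of all genes passed in it, against 0.884% with all libraries. *Cdh15*, the muscle M-cadherin, was near 2 CPM in both groups and its log2 fold change of -0.06 had an interval from -0.85 to 0.72.

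The type II classical cadherins, which bind within specificity groups and are expressed in restricted sets of neurons, contained 4 of the 9 genes, 2 in each direction among 12 tested. *Cdh8*, a synaptic type II cadherin that marks subsets of cortical neurons and areas, lies on chromosome 8 (99024471 to 99416471, minus strand) and had the smallest p of the family. Its level was 106, 93.5, 97.8 and 107 CPM in the control libraries and 128, 141, 125 and 120.2 CPM in the dcKO_Nex-Cre libraries. The lowest mutant library thus lay above the highest control. The mean was 127% of the control, with a log2 fold change of 0.35 ± 0.08 (edgeR, unadjusted p = 0.00070, adjusted p = 0.0609; DESeq2, adjusted p = 0.0028; exact permutation p = 0.0286). Leaving out dcKO_Nex-Cre replicate 4 gave 0.38 with an edgeR adjusted p of 0.0152, and within lane tag 2 the log2 fold change was 0.41 with an adjusted p of 0.0472. With the lane tag as a term edgeR's adjusted p was 0.0865, with the replicate number as a block 0.176, and in the other 7 omissions of a library 0.114 to 0.193. *Cdh8* shares 23 exonic bases with *Gm15679*, an antisense gene averaging 1.2 counts, and the sources used here do not give the strand setting of the counting.

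*Cdh20*, a relative of the motor neuron cadherins, lies on chromosome 1 (104768529 to 104995481, plus strand). It had 17.4, 12.6, 16.1 and 14.3 CPM in the control libraries and 20.1, 17.4, 22.5 and 15.2 CPM in the dcKO_Nex-Cre libraries. The groups overlapped, and the log2 fold change of 0.31 ± 0.14 had an unadjusted p of 0.0451 and an adjusted p of 0.353 (edgeR). No fit or omission tried gave *Cdh20* an adjusted p below 0.05.

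*Cdh12* and *Cdh22* were the type II members with an unadjusted p below 0.05 and lower levels in the mutant. *Cdh12* is a brain cadherin on chromosome 15 (20449265 to 21589533, plus strand). Its control libraries had 15.7, 13.5, 15.1 and 14.5 CPM and its dcKO_Nex-Cre libraries 10.4, 11.2, 9.24 and 13.02 CPM, so that the groups were separate but close at replicate 4 of the mutant. The log2 fold change was -0.43 ± 0.12 (edgeR, adjusted p = 0.148; DESeq2, adjusted p = 0.0384; exact permutation p = 0.0286), and without dcKO_Nex-Cre replicate 4 it was -0.51 with an adjusted p of 0.0222 in edgeR.

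*Cdh22*, named PB-cadherin for its expression in pituitary and brain, lies on chromosome 2 (165111507 to 165234853, minus strand) and had the lowest log2 fold change of the members tested. It was at 8.98, 6.13, 6.47 and 10.1 CPM in the control libraries and 5.25, 4.10, 5.49 and 2.13 CPM in the dcKO_Nex-Cre libraries. The groups did not overlap, and the mutant mean was 53.5% of the control. The log2 fold change was -0.88 ± 0.27 (edgeR, adjusted p = 0.178; DESeq2, adjusted p = 0.0363; exact permutation p = 0.0286). When both libraries that stood apart were left out, a choice made after seeing the data, it was -0.78 with an adjusted p of 0.0198. Without dcKO_Nex-Cre replicate 4 alone it was -0.68 with an adjusted p of 0.0553. None of the 8 omissions of a single library gave *Cdh22* an adjusted p below 0.05.

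The other 8 type II members tested had edgeR adjusted p values from 0.444 to 0.995. *Cdh10* and *Cdh18* had log2 fold changes of 0.19 each, with intervals from -0.05 to 0.43 and from -0.24 to 0.63. *Cdh24* had -0.23 (-0.51 to 0.05) and *Cdh11*, a cadherin of mesenchyme and brain, -0.13 (-0.32 to 0.06). The intervals of *Cdh6*, *Cdh7* and *Cdh9* were centred near 0, at 0.00 (-0.40 to 0.41), 0.01 (-0.22 to 0.23) and -0.08 (-0.31 to 0.14). *Cdh7* had the tightest control values of these, at 17.5, 17.9, 17.8 and 18.6 CPM.

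*Cdh5* encodes VE-cadherin of endothelial junctions and marks vessels in this tissue. It was at 15.5, 8.43, 14.9 and 14.1 CPM in the control libraries and 17.7, 20.6, 14.7 and 11.2 CPM in the dcKO_Nex-Cre libraries, with a log2 fold change of 0.28 (-0.18 to 0.75). The low value of control replicate 2 came with the lowest sum of 5 other endothelial markers, 94.96 CPM against 134 to 142 CPM in the other controls and 121 to 155 CPM in the mutant. *Pcdh12*, a protocadherin of endothelial cells, was likewise lowest in that library, at 2.74 CPM against 6.43 to 6.91 CPM in the other controls. In the dcKO_Nex-Cre libraries *Pcdh12* was at 3.71 to 5.6 CPM. Its log2 fold change was -0.39 (-0.97 to 0.18), and -0.57 without control replicate 2 and dcKO_Nex-Cre replicate 4 (edgeR, adjusted p = 0.0494). In that same fit, chosen after seeing the data, the endothelial marker *Flt1* had a log2 fold change of 0.37 (edgeR, adjusted p = 0.0221). The other markers of that list did not pass. *Pecam1* was at 0.24, *Tek* at 0.05, *Kdr* at 0.007 and *Cldn5* at -0.08 (edgeR, adjusted p = 0.0909 to 0.967). With all libraries none of the 5 endothelial markers had an unadjusted p below 0.05 in edgeR. The part of vessel content in these values was not tested.

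The delta-protocadherins, all 9 of which were tested, are expressed mainly in the nervous system. Of the 4 delta-1 members, *Pcdh11x* alone had an unadjusted p below 0.05, at a lower level, and of the 5 delta-2 members *Pcdh17* and *Pcdh18* did, at higher levels. *Pcdh11x* is an X-linked delta-1 protocadherin (chromosome X, 120290259 to 120910619, plus strand). Its control libraries had 58.3, 52.6, 38.7 and 60.3 CPM and its dcKO_Nex-Cre libraries 40.3, 28.1, 39.8 and 26.1 CPM. Control replicate 3 lay within the mutant range, and the other 3 controls lay above all mutant libraries. The mean was 64.0% of the control and the log2 fold change -0.64 ± 0.17 (edgeR, adjusted p = 0.131; DESeq2, adjusted p = 0.0178), with an exact permutation p of 0.0857. With sex as a term the log2 fold change was -0.65, with an adjusted p of 0.156. Without dcKO_Nex-Cre replicate 4 it was -0.53 (edgeR, adjusted p = 0.0818), and without control replicate 2 as well it was -0.53 with an unadjusted p of 0.0583 (adjusted p = 0.193), so that *Pcdh11x* no longer passed even the unadjusted threshold in edgeR.

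The other X-linked member, *Pcdh19*, a delta-2 protocadherin whose human counterpart is mutated in an epilepsy of females, was at 112, 88.7, 109.9 and 111 CPM in the control libraries and 118, 69.8, 97.8 and 68.3 CPM in the dcKO_Nex-Cre libraries. The lowest control was replicate 2, a female library, and the lowest mutant libraries were replicate 2, also female, and replicate 4, read as male. Control replicate 2 and dcKO_Nex-Cre replicate 4 were also the libraries that stood apart by their mitochondrial shares. The log2 fold change was -0.25 (-0.61 to 0.11; edgeR, adjusted p = 0.510).

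*Pcdh17* takes part in synapse formation between cortex and basal ganglia and lies on chromosome 14 (84443563 to 84539002, plus strand). It was at 88.4, 75.5, 82.3 and 90.97 CPM in the control libraries and 129, 122, 115 and 82.1 CPM in the dcKO_Nex-Cre libraries. Replicates 1 to 3 of the mutant lay above every control, and replicate 4 lay among the controls. The log2 fold change was 0.41 ± 0.13 with all libraries (edgeR, adjusted p = 0.189; DESeq2, adjusted p = 0.0797; exact permutation p = 0.114). Leaving out dcKO_Nex-Cre replicate 4 gave 0.54 with an adjusted p of 0.00441, and within lane tag 2 it was 0.57 with an adjusted p of 0.0233.

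*Pcdh18*, whose product binds the reelin adaptor DAB1, lies on chromosome 3 (49743296 to 49757325, minus strand). It had 30.2, 28.3, 31.2 and 31.3 CPM in the control libraries and 40.2, 32.4, 36.1 and 35.4 CPM in the dcKO_Nex-Cre libraries. The groups did not overlap, though the shift was small, with a mean at 119% of the control. Its log2 fold change was 0.25 ± 0.08 (edgeR, adjusted p = 0.219; DESeq2, adjusted p = 0.139; exact permutation p = 0.0286), and it did not pass in any fit or omission tried.

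The most abundant delta-1 and delta-2 members per kb had no shift beyond the spread between libraries. *Pcdh9* was at 82.6, 61.03, 83.3 and 79.6 CPM in the control libraries and 115, 77.9, 100.1 and 71.3 CPM in the dcKO_Nex-Cre libraries, with a log2 fold change of 0.25 (-0.08 to 0.58). *Pcdh8*, an activity-regulated protocadherin, was at 84.4, 67.5, 78.6 and 67.4 CPM in the control libraries and 89.8, 73.5, 81.8 and 72.8 CPM in the dcKO_Nex-Cre libraries, with a log2 fold change of 0.09 (-0.12 to 0.31). The groups overlapped for both genes. *Pcdh1*, *Pcdh7* and *Pcdh10* were centred near 0, at 0.03 (-0.33 to 0.40), -0.01 (-0.33 to 0.30) and -0.02 (-0.30 to 0.27), intervals that leave room for changes of the size seen in *Pcdh18*.

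Of the remaining protocadherins, *Pcdh20* had the highest log2 fold change of the 30 members tested. *Pcdh20*, which is needed for the positioning of layer IV neurons, lies on chromosome 14 (88464743 to 88471396, minus strand). Its control libraries had 28.9, 30.05, 30 and 30.8 CPM, and its dcKO_Nex-Cre libraries 47.1, 32.3, 47.04 and 55.3 CPM. The controls were tightly grouped, and each mutant library lay above them, replicate 2 only just. The mean was 152% of the control and the log2 fold change 0.60 ± 0.14 (edgeR, adjusted p = 0.0758; DESeq2, adjusted p = 0.00424; exact permutation p = 0.0286). Without dcKO_Nex-Cre replicate 2 it was 0.74 with an adjusted p of 0.00935, and without replicate 4 it was 0.50 with an adjusted p of 0.0331. Within lane tag 2, which leaves replicates 1 and 2 of the mutant, it was 0.41 with an adjusted p of 0.114.

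*Pcdh15*, a tip link protein of hair cells that is also expressed by oligodendrocyte precursors, had a log2 fold change of 0.15 (-0.10 to 0.40). Beside it, the sum of 4 oligodendrocyte lineage markers was 157 to 234 CPM in the control and 230.01 to 278 CPM in the dcKO_Nex-Cre libraries. In edgeR, 3 of the 4 markers had an unadjusted p below 0.05, all higher, against 6.59% of all genes in that direction. None of the 4 passed an adjusted p of 0.05 (edgeR, 0.216 to 0.621). The part of oligodendrocyte lineage cells in the *Pcdh15* values was not tested. *Cdh13*, the GPI-anchored T-cadherin, was at 127, 96.1, 110.2 and 145 CPM in the control libraries and 159, 125, 130.2 and 93.2 CPM in the dcKO_Nex-Cre libraries. Its groups overlapped, with a log2 fold change of 0.09 (-0.26 to 0.44). *Cdh23*, the tip link partner of *Pcdh15*, had -0.44 (-1.25 to 0.37) and *Cdh26* 0.05 (-0.93 to 1.02), both with wide intervals at low counts.

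**Figure D3:**
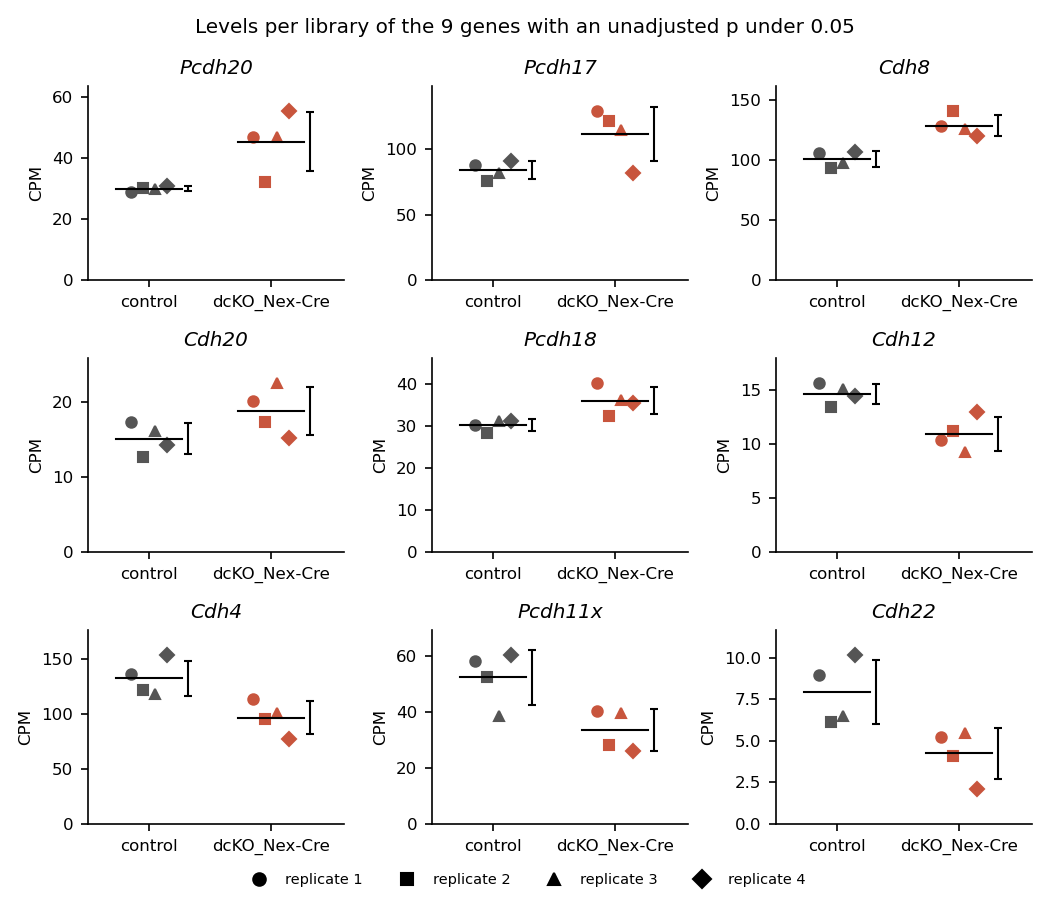
CPM of the 9 genes with an unadjusted p below 0.05 in each of the 4 control and 4 dcKO_Nex-Cre libraries, with group means and SD, each panel starting at 0. Mutant libraries lie clear of the controls in *Cdh8*, *Pcdh20*, *Pcdh18*, *Cdh4*, *Cdh12* and *Cdh22*, and at least 1 library overlaps in *Pcdh11x*, *Pcdh17* and *Cdh20*.

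The direction of these 9 genes was the same in the 18 alternatives tried, while the set that passed an adjusted p of 0.05 moved with the libraries used. The alternatives refit the libraries by which these 9 genes were picked, so a kept direction is no separate support. Without dcKO_Nex-Cre replicate 4, edgeR gave 5 members, *Cdh8*, *Pcdh17* and *Pcdh20* as upregulated and *Cdh4* and *Cdh12* as downregulated, against 7.73% of all genes, 3.98% in the first direction and 3.74% in the other. Without control replicate 2 as well, 8 members passed, 4 in each direction, *Cdh2*, *Cdh22* and *Pcdh12* being added, against 11% of all genes, 5.49% higher and 5.5% lower. Within lane tag 2, with 4 control and 2 mutant libraries, *Cdh8* and *Pcdh17* passed, against 1.48% of all genes. Of the other omissions of a single library, that of dcKO_Nex-Cre replicate 2 gave *Pcdh20* alone, against 0.292% of all genes. The remaining 6 gave no member in edgeR, and only 18 to 87 of the 16465 to 16607 genes tested passed in them. The replicate block also gave none, against 0.332% of all genes, with 12 at an unadjusted p below 0.05, against 12.1%. With the lane tag as a term in edgeR, no member passed, against 0.319% of all genes, and 10 had an unadjusted p below 0.05, against 19.6%.

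**Figure D4:**
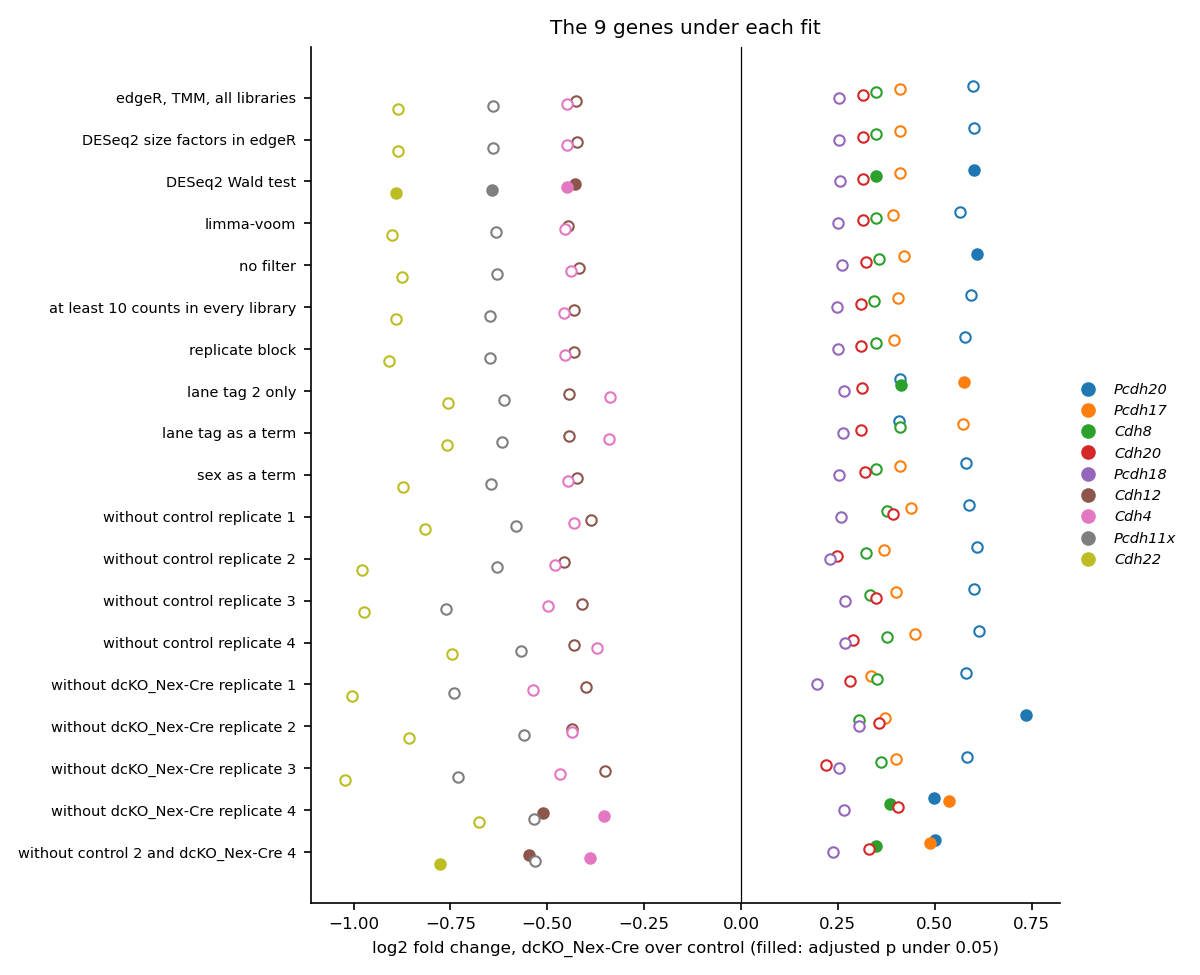
Log2 fold change of the 9 genes (dcKO_Nex-Cre over control) in the fit of all libraries and in the 18 alternatives, with filled points for an adjusted p below 0.05 in that fit. No gene crosses 0, and most filled points belong to DESeq2 and to the fits without dcKO_Nex-Cre replicate 4.

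*Cdh8* and *Pcdh20*, the upregulated members of the DESeq2 test, differ in the sequence ahead of their start sites, which is shown because BAF complexes act on chromatin at promoters and enhancers. The 250 bases before the RefSeq start (GRCm38.p6) are given 5′ to 3′ on the gene's strand, with CG dinucleotides in capitals, for *Cdh8* at chr8:99416472-99416721 and *Pcdh20* at chr14:88471397-88471646, both on the minus strand.
Cdh8: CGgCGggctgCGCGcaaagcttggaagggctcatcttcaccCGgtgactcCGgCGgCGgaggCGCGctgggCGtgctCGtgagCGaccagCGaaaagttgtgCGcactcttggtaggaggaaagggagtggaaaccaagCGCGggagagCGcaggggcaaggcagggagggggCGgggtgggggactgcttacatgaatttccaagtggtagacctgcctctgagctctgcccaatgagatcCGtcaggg
Pcdh20: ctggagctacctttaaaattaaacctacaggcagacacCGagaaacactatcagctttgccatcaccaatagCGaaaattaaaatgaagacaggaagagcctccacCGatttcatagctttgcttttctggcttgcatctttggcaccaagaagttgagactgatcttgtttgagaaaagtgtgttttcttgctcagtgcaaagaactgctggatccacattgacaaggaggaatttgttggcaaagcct
The *Cdh8* window held 20 CG dinucleotides and had a ratio of observed to expected CG of 0.825, higher than or equal to that of 82.9% of all 32851 promoter windows. The *Pcdh20* window held 3 and had a ratio of 0.267, with 38.9% of windows at or below it. A window was found for 22 of the 35 members, and in 3 of these, *Cdh12*, *Cdh18* and *Pcdh15*, it lay more than 100000 bases from the 5′ end of the gene in GENCODE. The ratio was at least 0.6 in 10 of these 22, against 34.0% of all windows, and the members' median was 0.543 against 0.374. Among the 19 members with nearer windows, 10 reached 0.6 and the median was 0.614. The E-box CANNTG, which reads the same on both strands, was found in 12 of the 22 members' windows and in 66.2% of all windows, and in 10 of the 19 nearer windows. The *Cdh8* window held 1 and the *Pcdh20* window none. These are counts of letters in the reference and no measurement of binding was made.

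Members tested on each of chromosomes 2, 3, 8, 10, 14, 15 and 18 had log2 fold changes on both sides of 0. The 5 members on chromosome 15, *Cdh6*, *Cdh9*, *Cdh10*, *Cdh12* and *Cdh18*, are all type II cadherins, and their log2 fold changes ran from -0.43 in *Cdh12* to 0.19 in *Cdh18*. On chromosome 14, the protocadherins *Pcdh8*, *Pcdh9*, *Pcdh17* and *Pcdh20* were all above 0, at 0.09, 0.25, 0.41 and 0.60, whereas *Cdh24* was at -0.23. Across all genes tested 50.9% were above 0. *Cdh4* and *Cdh22* share chromosome 2 with *Cdh26*, which was at 0.05. Both X-linked members, *Pcdh11x* and *Pcdh19*, were below 0, at -0.64 and -0.25, and both members tested on chromosome 1, *Cdh20* and *Cdh7*, were above it, at 0.31 and 0.01.

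The 5 members below the filter had low or uneven counts. *Cdh16*, the kidney cadherin, had 3 counts in dcKO_Nex-Cre replicate 1 and 0 in the other 7 libraries, and a count of 0 allows up to 0.167 CPM in the shallowest library, counting error only. *Cdh1* (E-cadherin) had 12 counts in all libraries together, *Cdh17* 31 and *Cdh19*, a cadherin of glial precursors of peripheral nerves, 96. *Cdh3* (P-cadherin) was uneven, with 35, 1, 3 and 44 counts in the control libraries and 0, 11, 0 and 1 in the dcKO_Nex-Cre libraries. The libraries with the most *Cdh3* were those with the most transthyretin RNA (*Ttr*), a choroid plexus marker, which was at 718, 14, 89.0 and 1305 CPM in the control libraries and 12.4, 543, 4.83 and 2.86 CPM in the dcKO_Nex-Cre libraries. The part of choroid plexus in the *Cdh3* counts was not tested.

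Genes that work with the cadherins were examined from a list of 40, of which 38 were tested. None passed in edgeR at an adjusted p of 0.05, and 4 had an unadjusted p below 0.05 (10.5%, against 13.6% of all genes), all at higher levels. Catenins and junction partners gave 0 of 15 and the WAVE complex 0 of 9. β-Catenin RNA (*Ctnnb1*) was at 1035 ± 99.3 CPM in control and 1152 ± 120 in mutant libraries (adjusted p = 0.520), and the neuronal α-catenin *Ctnna2* was at 248 ± 25.9 and 267 ± 45.2 (adjusted p = 0.733). *Ctnnd1*, encoding p120-catenin, which keeps cadherins at the membrane, was at 22.1 ± 0.51 and 26.4 ± 4.86 CPM (adjusted p = 0.385).

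*Fat1*, a giant cadherin of the Hippo and planar polarity pathways, had 79.95, 92.6, 82.2 and 75.1 CPM in the control libraries and 164, 111, 128 and 89.7 CPM in the dcKO_Nex-Cre libraries, and the groups overlapped at mutant replicate 4. Its log2 fold change was 0.58 (edgeR, adjusted p = 0.129; DESeq2, adjusted p = 0.0183). *Fat3* had 0.33 (edgeR, adjusted p = 0.343). *Ncstn*, encoding nicastrin, had 0.23 (edgeR, adjusted p = 0.216), and its groups did not overlap. Without dcKO_Nex-Cre replicate 4, 6 partner genes passed in edgeR, against 7.73% of all genes, among them *Ctnna1*, *Ctnnd1*, *Fat1*, *Jup* and *Ncstn*.

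Marker lists of cell types were set beside the cadherin genes. The sum of 5 principal neuron markers was 1091 to 1312 CPM in the control and 782 to 976 CPM in the dcKO_Nex-Cre libraries. In edgeR, 2 of the 5 had an unadjusted p below 0.05, both lower, against 7.05% of all genes in that direction. They were *Neurod6*, whose locus carries Cre, at -0.74 (log2 fold change; edgeR, adjusted p = 0.0192), and *Slc17a7*, at -0.54 (adjusted p = 0.280). Without *Neurod6* the sum was 521 to 571 CPM in the control and 455 to 565 CPM in the dcKO_Nex-Cre libraries, and the groups overlapped. Striatal markers summed to 72.4 to 115 CPM in the control and 79.3 to 102 CPM in mutant replicates 1, 3 and 4, but to 242 CPM in replicate 2, the mutant library with the lowest *Pcdh20*. In that list *Ppp1r1b* was higher in all 4 mutant libraries, at 46.1 to 88.3 CPM against 28.5 to 33.5 CPM in the control (log2 fold change 0.96; edgeR, adjusted p = 0.0400). The part of either list in the values of the cadherin genes was not tested.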

How the data were processed

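Raw counts per Ensembl gene, deposited by the authors for each of the 8 libraries without normalization or filtering, were analysed. Libraries had been made from total RNA of whole tissue (TRIZOL, Illumina TruSeq v2). The submitters' processing notes name the build mm10, while the aligner, the counting program, the annotation and the strand setting are not given in the sources used here. The labels do not name Nex-Cre, which is known here from the paper. Positions and exon lengths came from GENCODE M21 (GRCm38), to which 48349 of 48709 genes were matched.

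Genes were filtered by filterByExpr, libraries were normalized by TMM, and groups were compared with the two-sided quasi-likelihood test of edgeR 4.0.16 in R 4.3.3, with robust dispersions and Benjamini-Hochberg adjustment over the 16287 genes tested (threshold 0.05). The biological coefficient of variation was 0.143. CPM were computed with TMM-adjusted library sizes. The exact permutation test was two-sided over 70 regroupings. Alternatives were DESeq2 size factors, DESeq2 1.42.0, limma-voom (limma 3.58.1), no filter, at least 10 counts in every library, the replicate number as a block, lane tag 2 only, lane tag or sex as a term, 8 omissions of 1 library and, chosen after seeing the data, omission of control replicate 2 with dcKO_Nex-Cre replicate 4. Members, classes, partner genes and marker lists were chosen with earlier results of these data known. Values were given in every library for members with an unadjusted p below 0.05, members passing in DESeq2 or limma-voom, and the member with the highest CPM per kb in each class. *Fat1*, *Ncstn* and *Fat3* were named among the partner genes for their small p. Some items are withheld and are not reported here. The fits were tested on simulated counts. Same-numbered libraries were not treated as pairs, since their deviations from the group means correlated at -0.138 to 0.135. Values of this size do not exclude pairing. Each library differed from the others of its group by more than sampling noise.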

Additional observations from a re-analysis of the deposited data

Results flagged for a closer look

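In 4 of the 64 groups of 4 values checked, 1 library lay far from the other 3. All 4 were groups of members tested, and about 3.2 such groups arise by chance. Control replicate 2 gave 3 of these values, all low. Its *Pcdh9* level was 61.03 CPM, while the other controls had 79.6 to 83.3 CPM. Its *Pcdh19* level was 88.7 CPM, while the other controls had 109.9 to 112 CPM. Its *Pcdh12* level was 2.74 CPM, while the other controls had 6.43 to 6.91 CPM. This library also had the highest mitochondrial share, 6.87% of its counts. The fourth value was that of *Cdh26* in dcKO_Nex-Cre replicate 1, with 0.203 CPM, while the other mutant libraries had 0.561 to 0.613 CPM.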

How the results depend on the processing

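The number of members with an adjusted p below 0.05, which was 0 in edgeR with all libraries, was 6 in DESeq2's Wald test, 1 (*Pcdh20*) without the filter, 2 within lane tag 2 and 8 without control replicate 2 and dcKO_Nex-Cre replicate 4, and ran from 0 to 5 when single libraries were left out, the 5 being without dcKO_Nex-Cre replicate 4. For partner genes it was 1 in DESeq2, 2 within lane tag 2, 8 without both libraries, and 0 to 6 with single libraries left out, the 6 again without dcKO_Nex-Cre replicate 4. Of all genes, 3.02% passed in DESeq2, 1.48% within lane tag 2, 11% without both libraries and 7.73% without dcKO_Nex-Cre replicate 4. The cause of these differences was not tested. The replicate numbers were not treated as pairs. With the number as a block no member passed in edgeR, 12 had an unadjusted p below 0.05, and 54 genes passed in place of 144. The log2 fold change of *Smarcc1* was -0.54 with the block (adjusted p = 0.0578), -0.46 within lane tag 2 (0.0752), -0.46 with the lane tag as a term (0.128) and -0.63 to -0.47 with single libraries left out, keeping its call without dcKO_Nex-Cre replicate 2 or 4 and losing it in the other 6 omissions (adjusted p 0.0784 to 0.132). *Smarcc2* kept its call in every alternative. Of the 30 members, 22 kept their direction in all alternatives, and 8 members with log2 fold changes near 0 did not. The 22 included the 9 genes picked by an unadjusted p below 0.05 in these same libraries.

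Within lane tag 2, with lane tag as a term and without both libraries, the log2 fold changes were 0.44, 0.44 and 0.085 in *Cdh15*, 0.092, 0.089 and 0.024 in *Pcdh10*, -0.22, -0.22 and -0.18 in *Cdh26*, 0.13, 0.12 and 0.0029 in *Pcdh7*, and -0.13, -0.14 and -0.070 in *Cdh7*. *Cdh7* was at -0.015 in limma-voom, and *Cdh6* at -0.0035 with at least 10 counts in every library and at -0.030 with the block. With single libraries left out the ranges were -0.040 to 0.21 in *Cdh13*, -0.11 to 0.18 in *Pcdh1*, -0.38 to 0.18 in *Cdh15*, -0.085 to 0.095 in *Pcdh10*, -0.11 to 0.47 in *Cdh26*, -0.16 to 0.087 in *Pcdh7*, -0.068 to 0.054 in *Cdh7* and -0.20 to 0.14 in *Cdh6*. Depth limits *Cdh26*, *Cdh23* and *Cdh15* most, and *Cdh26* could not be fitted under the filter of 10 counts.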

Other observations

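Markers of other cells in the tissue gave these sums in CPM, with the control range before the dcKO_Nex-Cre range. Interneuron markers summed to 554 to 753 and 517 to 692, radial glia and astrocyte markers to 731 to 1053 and 744 to 1146, and microglia markers to 86.3 to 101 and 87.7 to 117. Mural cell markers summed to 142 to 194 and 131 to 151, meningeal fibroblast markers to 13.4 to 27.3 and 8.38 to 52.04, and blood markers to 78.4 to 131 and 76.3 to 179. Cajal-Retzius markers summed to 360.04 to 782 and 435 to 631, thalamic markers to 49.2 to 69.7 and 47.7 to 66.6, hippocampal markers to 259 to 354 and 273 to 372, and choroid plexus markers to 15.98 to 1327 and 3.54 to 552. The ranges of these sums overlapped between the groups in each of these 10 lists. Within the microglia list, single genes differed in direction, with *C1qb* at 18.6 to 21.9 CPM in the control and 25.9 to 31.03 CPM in the dcKO_Nex-Cre libraries (edgeR, adjusted p = 0.0422) and *P2ry12* at 11.7 to 12.4 and 6.96 to 9.30 CPM (adjusted p = 0.0596). In edgeR at an unadjusted p below 0.05, the microglia list gave 2 of 5 genes higher and 1 lower, the mural list 1 lower, the hippocampal list 1 higher and the other 7 lists none. Of all genes, 6.59% were higher and 7.05% lower at that threshold. In radial glia and astrocyte markers the lowest sum of each group was that of control replicate 2 or dcKO_Nex-Cre replicate 4. *Cdh2*, the main cadherin of those cells, was also lowest in these libraries within each group, at 197 and 242 CPM. So were other genes, among them *Pcdh1*, *Pcdh7*, *Pcdh10* and *Ctnnb1*, whereas *Cdh24* was highest in both libraries within each group. The part of glial content in the *Cdh2* values was not tested.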
